A study of Homo sapiens with 6 samples.

Results

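The replication-dependent histone genes were taken as every listed gene whose symbol begins with HIST1H, HIST2H, HIST3H or HIST4H. The table held 63 such symbols, and the 2 with a pseudogene name ending in PS were left out, which gave 61 genes of the 23858 listed. They comprised 5 H1, 12 H2A, 20 H2B, 11 H3 and 13 H4 genes. Of these, 57 were protein-coding in GENCODE 29, HIST2H2BA, HIST2H2BB and HIST2H2BD were transcribed pseudogenes there, and HIST2H2BC was not in that annotation. RNA came from NB4 cells, an established human line of acute promyelocytic leukaemia with the fusion gene PML-RARA. One group was the labelled control and the other had arsenic trioxide, a drug that triggers breakdown of the PML-RARA protein, for 6 h, with 3 libraries in each group. Both groups were the same line, grown in the same serum-containing medium, so every value rests on 1 cell line. The dose of arsenic trioxide and any vehicle in the control are not given in the sources used here. Levels are RPKM, a read count divided by the gene's exon length and the depth of its library. Genes are called abundant by mean RPKM, so these ranks and the sums by type depend on the annotated length.

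Histones H2A, H2B, H3 and H4 form the protein core around which DNA is wrapped in the nucleosome, and H1 binds the linker DNA between cores. Their replication-dependent genes lie in clusters, are mostly free of introns and are transcribed in S phase, when new DNA has to be packed. Their mRNAs end in a conserved stem-loop in place of a poly(A) tail, which SLBP binds for processing, export and translation, and they are degraded rapidly when DNA synthesis stops. Libraries here were made from total RNA depleted of ribosomal RNA and not selected for poly(A), so mRNAs that end at the stem-loop could be sequenced.

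The stem-loop is the feature that defines this class of mRNA, and it was found in GENCODE 29 transcripts of 27 of the 61 genes, of which 5 were H2A, 10 H2B, 4 H3 and 8 H4. Examples from each of these types follow, 5′ to 3′ in the DNA alphabet, with the 16 bases of the stem-loop in capitals and 5 bases on each side in lower case.
HIST1H2AE: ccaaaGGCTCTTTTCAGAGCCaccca
HIST1H2BC: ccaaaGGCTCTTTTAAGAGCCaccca
HIST1H3H: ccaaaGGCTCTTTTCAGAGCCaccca
HIST1H4B: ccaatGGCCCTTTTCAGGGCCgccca
HIST1H4I: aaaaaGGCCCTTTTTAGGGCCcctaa
The stem was 6 base pairs and the loop 4 bases in each, and the types differed in the stem. All 8 H4 genes had a stem that opens with GGCCC, of which 5 carried the loop TTTC as in HIST1H4B and 3 the loop TTTT as in HIST1H4I. The H2A, H2B and H3 genes had a stem that opens with GGCTC, with the loop TTTC in 15 genes, as in HIST1H2AE, and the loop TTTA in 4, as in HIST1H2BC. No annotated stem-loop was found for H1, where 4 of the 5 gene models stop at the coding sequence. Across the 61 genes, 25 models held the coding length only, and 17 ran for over 300 bases past the stem-loop.

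**Figure D1:**
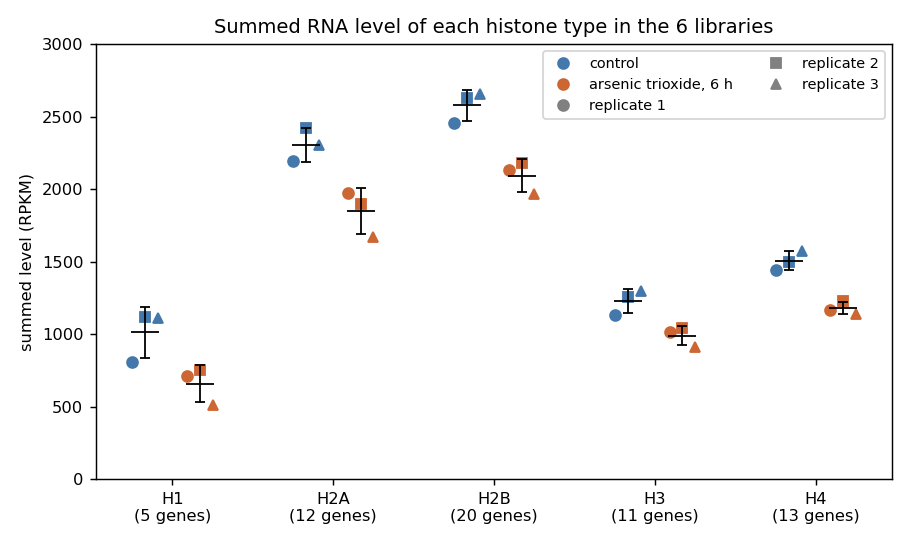
Summed RPKM of all listed genes of each histone type (x axis) in the 3 control and 3 arsenic trioxide libraries, with the mean as a long bar, the SD as whiskers and the replicate shown by symbol shape. In each of the 5 types the 3 treated libraries sat below the 3 control libraries, and the mean H1 sum was 1013 in control and 659.7 with arsenic trioxide.

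Histone RNA was abundant, and its summed level was lower after arsenic trioxide in every type. The 61 genes together summed to 8037, 8919 and 8939 RPKM in the control libraries and to 7001, 7102 and 6204 RPKM with arsenic trioxide, 21.6% lower in the mean. H1 summed to 1013 ± 175 RPKM (SD, n = 3) in control and 659.7 ± 128 after treatment, 34.9% lower, the most of any type. H2A went from 2305 ± 115 to 1848 ± 159 RPKM, 19.8% lower, and H2B from 2578 ± 107 to 2092 ± 114, 18.9% lower. H3 went from 1230.3 ± 84.6 to 989 ± 66.4 RPKM, 19.6% lower, and H4 from 1505 ± 65.5 to 1180.4 ± 43.4, 21.6% lower. For each type and for all together, the highest treated library was below the lowest control library, as the plot of summed levels shows. These sums are descriptions without a test, and in bulk RNA fewer cells in S phase and less histone RNA per cell cannot be told apart.

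The libraries of a group were not alike for these genes. Control 1 was the lowest control library for 40 of 57 histone genes tested (70.2%), against 38.9% of all genes tested, and ATO 3 (arsenic trioxide, replicate 3) was the lowest treated library for 41 (71.9%), against 31.6% of all genes. The median histone gene stood at -0.09, 0.03 and 0.07 log2 units from the control mean in the 3 control libraries and at -0.29, -0.26 and -0.48 in the 3 treated ones, while the median of all genes stayed within 0.02 of 0. Of 7 promyelocyte genes, 6 were listed, and their summed RPKM was 1028 to 1408 in control and 687 to 1020.4 with arsenic trioxide, with MPO (myeloperoxidase, the defining one) at 940 ± 132 and 677 ± 123 RPKM. Their median log2 distance was -0.22 in control 1 and -0.64 in ATO 3, each the lowest of its group, and their part in the result was not tested. Markers of other cells were absent or low. None of 3 erythroid genes was listed, the 1 of 4 T cell genes listed (CD3D) was at 3.54 RPKM and the 1 of 4 epithelial or fibroblast genes (EPCAM) at 5.39 in control. The 2 of 4 B cell genes listed summed to 3.05 to 3.26 RPKM in control and 5.98 to 6.26 with arsenic trioxide. Library totals were 19361333 to 22609019 reads. No label says that the libraries came from separate cultures, so p-values refer to library spread alone, which may be technical.

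**Figure D2:**
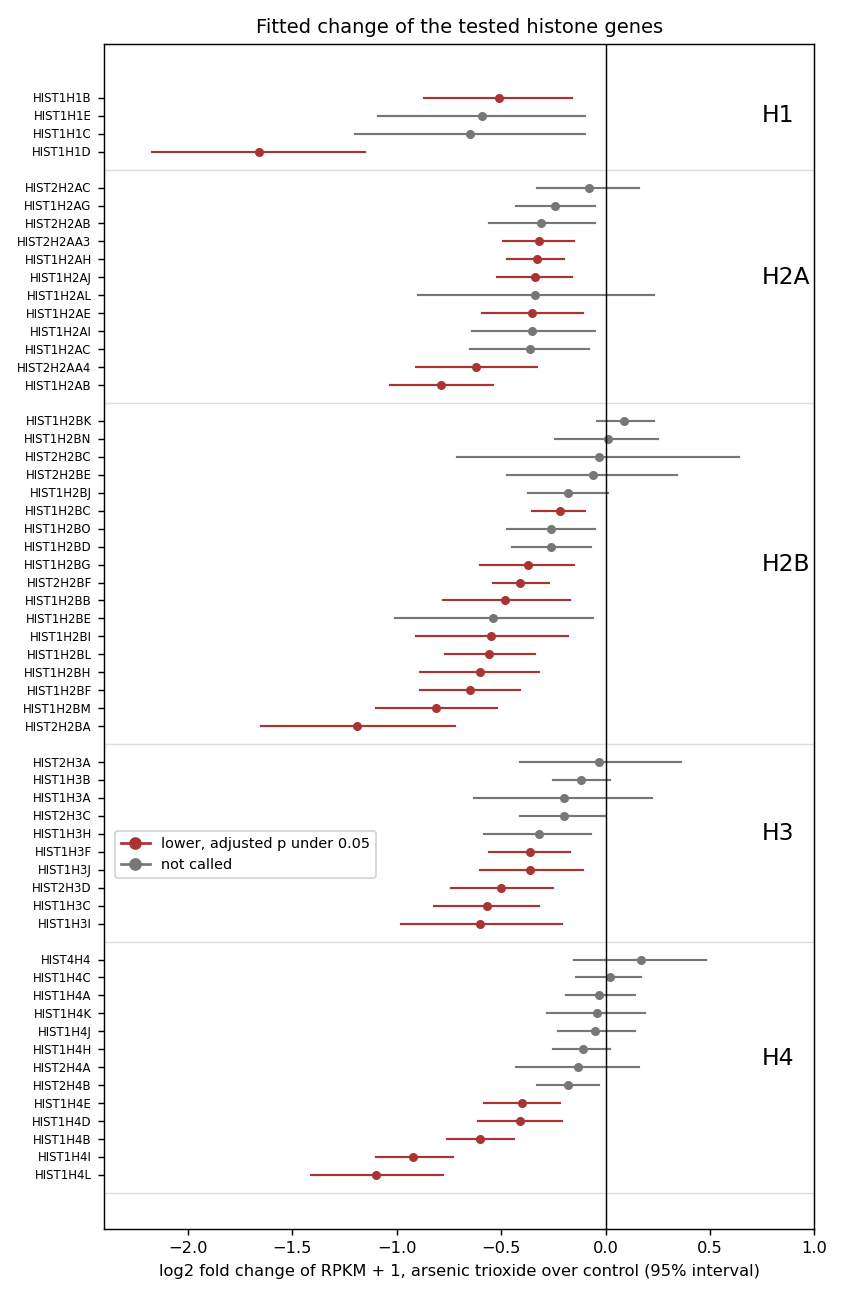
Fitted log2 fold change of RPKM + 1, arsenic trioxide over control, of the 57 tested histone genes (y axis, grouped by type), with 95% confidence intervals from limma. Red marks the 28 genes called lower and grey the 29 not called, and HIST1H1D at -1.66 lies farthest from 0.

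Gene by gene, 28 of the 57 histone genes tested were lower after arsenic trioxide (49.1%), where 13.4% of all 16803 genes tested were called lower. None was called higher, against 12.0% of all genes, and none was higher at an unadjusted p under 0.05 by limma-trend or by limma-voom. The call is a Benjamini-Hochberg adjusted p under 0.05 in limma-trend on log2(RPKM + 1), fitted on all genes that averaged 1 RPKM or more, and HIST1H2BI (1.56 RPKM in control, 0.766 with arsenic trioxide) passed that filter only through its control level. The fitted change was below 0 for 53 genes and above 0 for 4, with a median of -0.35 on this log2 scale and a range of -1.66 to 0.17, beside a median of -0.00333 for all genes tested. In 38 genes every treated library lay below every control library, a pattern held by 22.6% of all genes tested, in 1 gene (HIST1H2BK) every treated library lay above, against 21.9%, and in 18 the groups overlapped. The authors' deposited table gives 34 of the 57 as lower at an adjusted p under 0.05 and 0 as higher, and 27 of the 28 called here are among its 34. The share of all genes called in the authors' comparison is not given here, so these 34 have no background beside them. With 1 library left out, the number called lower was 17 without control 2, 19 without control 3, 20 without ATO 3 and 21 to 27 without the others, and 16 genes were called whichever library was left out. The count over all genes tested fell as well, from 2252 to 1427, 1487, 1908 and 1581 to 1737 in the same order. Without both control 1 and ATO 3 the histone count was 26 and that of all genes 1484. Not tested, at a mean under 1 RPKM, were HIST1H1A (0.314), HIST2H2BD (0.988), HIST2H2BB (0.364) and HIST1H3G (0.2).

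Of the linker histone genes, which encode closely related H1 subtypes, 2 of 4 tested were called lower and the median log2 change was -0.62. The largest fall of any histone gene was that of HIST1H1D (chr6:26234268-26234933, minus strand, 666 bases, coding length only). Its RPKM was 54.9, 89.1 and 83.0 in the 3 control libraries and 23.6, 27.9 and 17.8 with arsenic trioxide, which is 3.27-fold lower, with a log2 change of -1.66 ± 0.22 (SE) and a limma adjusted p of 0.00302. The lowest control library lay well above the highest treated one, and the call held whichever library was left out. Its promoter, credited to RefSeq (GRCh38.p14, 250 bases before to 50 after the annotated start), is shown because it belongs to the gene with the largest fall. Capitals mark AAACACA (the H1 box), CCAAT and TATAAA, each searched on both strands.
HIST1H1D promoter, chr6:26234938-26235237, minus strand: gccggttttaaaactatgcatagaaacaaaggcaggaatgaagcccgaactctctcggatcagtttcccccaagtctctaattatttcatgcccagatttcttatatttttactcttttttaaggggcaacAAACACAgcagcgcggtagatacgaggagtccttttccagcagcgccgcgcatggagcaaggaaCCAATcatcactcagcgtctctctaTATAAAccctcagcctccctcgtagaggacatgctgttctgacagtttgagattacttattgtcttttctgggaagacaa
AAACACA was present in the promoters of all 5 H1 genes and in 5.64% of all 35116 RefSeq promoters, so it does not set HIST1H1D apart within the type.

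The other H1 genes had smaller changes and varied between libraries. HIST1H1B, the most abundant of them, had 425, 556 and 566 RPKM in control and 379, 403 and 302 with arsenic trioxide, with no overlap of the groups. Its log2 change was -0.51 ± 0.15 (SE) at an adjusted p of 0.0457 (limma), and the call was lost without control 2 (0.131), control 3 (0.123), ATO 1 (0.0841), ATO 2 (0.0587) or ATO 3 (0.106). HIST1H1C, which encodes another common subtype, had 196, 289 and 287 RPKM in control and 179.6, 199 and 116 with arsenic trioxide, and here control 1 lay within the treated range. Its change of -0.65 was not called (adjusted p = 0.0808, limma-trend), but it was without control 1 (0.0494) and by limma-voom on recovered reads (0.0131). HIST1H1E had 135, 183 and 174 RPKM in control and 131, 122 and 77.5 with arsenic trioxide. The groups did not overlap, the change of -0.59 had an adjusted p of 0.0803 by limma-trend and 0.0144 by limma-voom, and the median of the 4 H1 genes shrank to -0.40 without ATO 3.

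**Figure D3:**
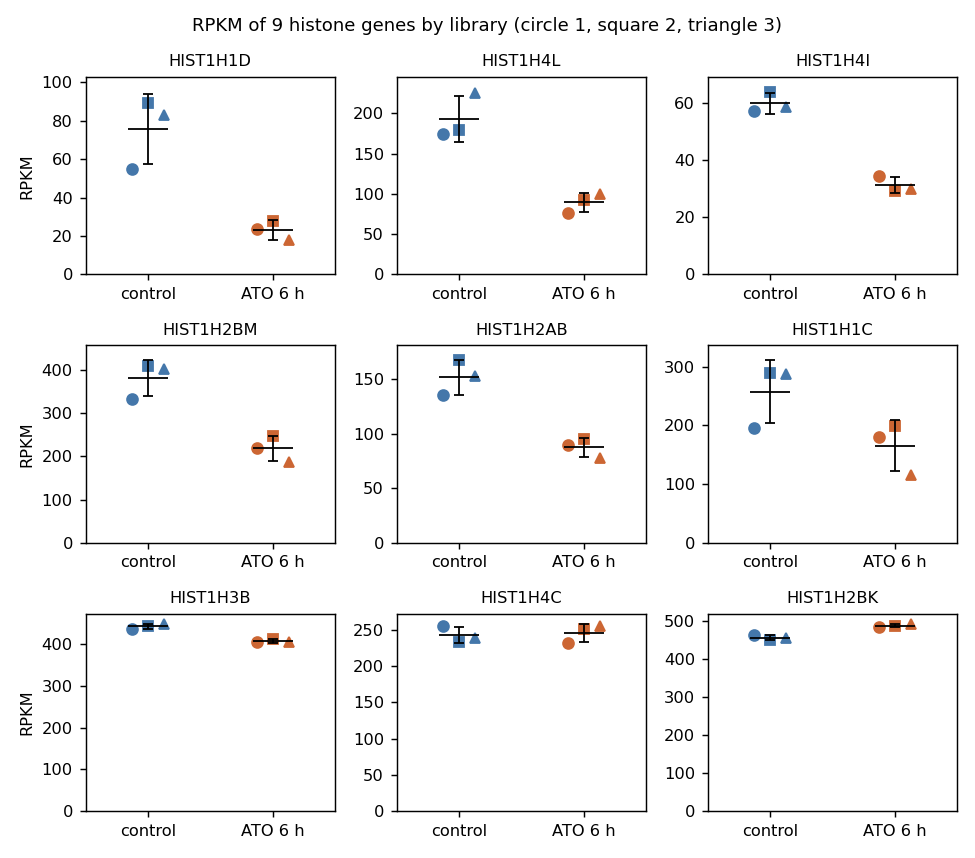
RPKM of 9 histone genes in the 3 control (blue) and 3 arsenic trioxide (orange) libraries, with the mean as a long bar and the SD as whiskers; y axes start at 0. In HIST1H1D, HIST1H4L, HIST1H4I, HIST1H2BM and HIST1H2AB the groups are far apart, whereas HIST1H4C is at 243 in control and 246 with treatment.

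The H2A genes encode the histone that pairs with H2B in the nucleosome core, and 6 of 12 tested were called lower, with a median log2 change of -0.34. The most abundant, HIST1H2AJ, had 413, 452 and 418 RPKM in control and 363, 332 and 319.6 with arsenic trioxide, a change of -0.34 (adjusted p = 0.0181, limma) that was not called without control 2 (0.0685) or ATO 2 (0.0636). Of its 50-base stretches, 83.7% also occur in other histone transcripts, so its reads and its rank are uncertain. HIST1H2AH was at 329, 342 and 331 RPKM in control and 274, 262 and 258 after treatment. Its libraries varied little, and its change of -0.33 ± 0.06 (SE) was called with any library left out (adjusted p = 0.00739 with all 6, limma). HIST1H2AE fell by 0.35 on the log2 scale from 359.6 ± 22.6 to 282 ± 33.6 RPKM (adjusted p = 0.0431, limma), a call lost without any 1 of the 6 libraries (adjusted p 0.0581 to 0.131). HIST2H2AC, the second most abundant at 375, 408 and 366 RPKM in control, stood at 399.8, 377 and 312 with arsenic trioxide. The groups overlapped, and the 95% interval of its log2 change ran from -0.33 to 0.16. The largest H2A change was that of HIST1H2AB, from 152 ± 15.9 to 87.5 ± 8.8 RPKM, 1.73-fold lower (adjusted p = 0.00299, limma). HIST2H2AA3 and HIST2H2AA4, neighbouring copies whose transcripts share 100% and 97.1% of their 50-base stretches with other histone transcripts, were both called (-0.32 and -0.62), but reads cannot be assigned between them with certainty, and the first was not called without control 2 (0.0614).

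Of the H2B genes 10 of 18 tested were called lower, with a median log2 change of -0.39. HIST1H2BM (chr6:27815044-27815424, plus strand) had 334, 409 and 403 RPKM in control and 219, 248 and 188 with arsenic trioxide. That is 1.75-fold lower, with a change of -0.81 ± 0.12 (SE) and an adjusted p of 0.00498 (limma), and no treated library came near the controls. HIST1H2BK (chr6:27146418-27146798, minus strand), on the other side of this range, had 462, 449 and 456 RPKM in control and 484, 485 and 492 after treatment. Every treated library was above every control, yet the change was small, 0.09 with a 95% interval of -0.04 to 0.23 and an adjusted p of 0.277 (limma). The promoters of these 2 genes, from RefSeq (GRCh38.p14), are shown because the first fell and the second was not called. Capitals mark ATTTGCAT (the octamer that the factor OCT1 binds), CCAAT and TATAAA, on either strand. HIST1H2BK has TATAAA on its own strand. In HIST1H2BM it is only on the opposite strand, in a stretch shared with the promoter of the neighbour HIST1H2AJ.
HIST1H2BM promoter, chr6:27814772-27815071, plus strand: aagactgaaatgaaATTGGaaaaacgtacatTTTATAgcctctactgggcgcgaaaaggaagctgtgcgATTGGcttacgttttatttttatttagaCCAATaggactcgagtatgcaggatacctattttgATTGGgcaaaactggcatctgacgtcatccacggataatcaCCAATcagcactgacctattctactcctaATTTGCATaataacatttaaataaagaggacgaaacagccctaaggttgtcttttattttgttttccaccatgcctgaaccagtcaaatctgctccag
HIST1H2BK promoter, chr6:27146806-27147105, minus strand: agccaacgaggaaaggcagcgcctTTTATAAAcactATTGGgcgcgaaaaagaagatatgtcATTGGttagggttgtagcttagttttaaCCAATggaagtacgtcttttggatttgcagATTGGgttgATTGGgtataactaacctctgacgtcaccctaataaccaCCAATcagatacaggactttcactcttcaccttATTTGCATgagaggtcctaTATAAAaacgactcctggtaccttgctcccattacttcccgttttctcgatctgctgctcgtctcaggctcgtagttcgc
The octamer was in 13 of 16 H2B promoters, in 8 of 11 H2A promoters, in 0 of the H1, H3 and H4 promoters, and in 1.77% of all RefSeq promoters. Among H2B genes it was in 8 of 9 promoters of genes called lower and in 5 of 7 of those not called. TATAAA was in 37 of the 52 matched histone promoters, against 11.5% of all promoters, in 16 of 24 for genes called lower and in 20 of 26 for those not called. Promoter windows of back-to-back genes can overlap, so 1 site may count for both genes in any motif count here. The octamer of HIST1H2AJ and HIST1H2BM is such a shared site, so the counts do not tell which gene an element serves.

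The remaining H2B genes lay between these 2 or were scarce. HIST1H2BO, with the highest mean RPKM of the histone genes, had 528, 556 and 514 in control and 484, 452 and 399 with arsenic trioxide. The groups did not overlap, and the change of -0.26 had an adjusted p of 0.0685 by limma-trend and 0.0238 by limma-voom. HIST1H2BC fell by 0.22 on the log2 scale from 286 ± 3.87 to 245 ± 3.98 RPKM (adjusted p = 0.0218, limma), and with 1 library fewer its adjusted p was 0.0516 to 0.0815, whichever was left out. HIST1H2BF and HIST1H2BL, at 128 and 193 RPKM in control, changed by -0.65 and -0.56 and were called with any 1 library left out. HIST2H2BA, the pseudogene, fell 3.08-fold from 5.22 ± 1.4 to 1.69 ± 0.277 RPKM (adjusted p = 0.0065, limma). It is scarce, it overlaps another listed gene, and 63.5% of its 50-base stretches occur in other histone transcripts, so its value is uncertain. HIST1H2BN, HIST2H2BC and HIST2H2BE had changes of 0.01, -0.03 and -0.06 and overlapping groups.

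The H3 genes, whose protein carries most of the well-known histone marks, gave 5 calls of lower among 10 tested and a median log2 change of -0.34. HIST1H3B was the most abundant, at 437, 444 and 449 RPKM in control and 407, 414 and 406 with arsenic trioxide. Its libraries barely varied and the groups stood apart, but the change was only -0.12, with a 95% interval of -0.25 to 0.02 (adjusted p = 0.182, limma). HIST1H3I had 146, 181 and 200.3 RPKM in control and 121, 134 and 92.8 after treatment, a change of -0.60 (adjusted p = 0.0358, limma). That call was lost without control 2 (0.0979), control 3 (0.0996), ATO 1 (0.0739) or ATO 3 (0.0733). HIST1H3F fell by 0.36 on the log2 scale from 158 ± 11.3 to 123 ± 10.3 RPKM (adjusted p = 0.0201, limma) and was not called without control 2 (0.0574) or control 3 (0.0608). HIST1H3H, with -0.32, was not called (adjusted p = 0.0681) although its groups did not overlap, and limma-voom called it (0.0228). HIST1H3C and HIST2H3D, at -0.57 and -0.50, were called with any 1 library left out, and 80.4% of the 50-base stretches of HIST2H3D also occur in other histone transcripts.

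The H4 genes, the partner of H3 in the core, were split. Of 13 tested, 5 were called lower and the median log2 change was -0.13 (-0.20 without ATO 1), yet they include the next largest falls of coding genes after HIST1H1D. HIST1H4L (chr6:27873199-27873510, minus strand) had 174, 179 and 226 RPKM in control and 76.2, 92.4 and 100 with arsenic trioxide, 2.16-fold lower, with a change of -1.10 ± 0.13 (SE) and an adjusted p of 0.00235 (limma). HIST1H4I (chr6:27138588-27139881, plus strand) had 57.0, 63.9 and 58.4 RPKM in control and 34.3, 29.3 and 29.9 with arsenic trioxide. This is 1.92-fold lower, with a change of -0.92 ± 0.08 (SE) and, at 0.000801, the smallest limma adjusted p of the histone genes. Both calls held with any 1 library left out, and so did those of HIST1H4B (-0.60) and HIST1H4E (-0.40). HIST1H4D, the most abundant H4 gene, fell by 0.41 on the log2 scale from 471 ± 25.5 to 355 ± 31.1 RPKM (adjusted p = 0.0153, limma), a call lost without control 2 (0.0574). In contrast HIST1H4C had 256, 234 and 239 RPKM in control and 232, 251 and 255 after treatment. These overlap fully, and the change of 0.02 had a 95% interval of -0.14 to 0.17. HIST1H4A, HIST1H4J and HIST1H4K were likewise at -0.03, -0.05 and -0.04 with overlapping groups. HIST1H4K was at 119 ± 16 and 115 ± 6.12 RPKM. HIST1H4K and HIST1H4J share 100% and 81.2% of their 50-base stretches with other histone transcripts, so their reads are uncertain.

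Promoters of 3 H4 genes from RefSeq (GRCh38.p14) are shown because they cover both ends of this split, with CCAAT and TATAAA, on either strand, in capitals.
HIST1H4L promoter, chr6:27873485-27873784, minus strand: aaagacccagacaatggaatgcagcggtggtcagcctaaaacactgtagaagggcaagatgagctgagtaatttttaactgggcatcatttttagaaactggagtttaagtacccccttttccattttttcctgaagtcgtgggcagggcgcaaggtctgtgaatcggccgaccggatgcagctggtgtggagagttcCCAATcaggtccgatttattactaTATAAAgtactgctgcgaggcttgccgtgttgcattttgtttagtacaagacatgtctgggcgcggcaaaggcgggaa
HIST1H4I promoter, chr6:27139032-27139331, plus strand: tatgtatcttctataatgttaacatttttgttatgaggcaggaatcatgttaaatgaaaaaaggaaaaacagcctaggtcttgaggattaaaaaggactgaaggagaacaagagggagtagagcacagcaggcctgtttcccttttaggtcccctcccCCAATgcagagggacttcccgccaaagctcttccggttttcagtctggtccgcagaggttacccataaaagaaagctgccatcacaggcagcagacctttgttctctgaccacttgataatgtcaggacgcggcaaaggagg
HIST1H4K promoter, chr6:27831511-27831810, minus strand: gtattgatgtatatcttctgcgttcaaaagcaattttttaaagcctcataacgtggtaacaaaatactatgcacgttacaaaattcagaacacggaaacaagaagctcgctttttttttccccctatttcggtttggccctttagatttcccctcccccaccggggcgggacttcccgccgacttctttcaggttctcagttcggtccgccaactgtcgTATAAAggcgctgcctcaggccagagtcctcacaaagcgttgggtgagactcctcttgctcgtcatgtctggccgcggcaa
CCAAT was in the promoters of all 5 H1, 11 H2A, 16 H2B and 9 H3 genes matched, in 34.6% of all RefSeq promoters, and in 2 of the 11 H4 promoters matched. Those 2 were HIST1H4L and HIST1H4I, the H4 genes with the largest falls, which was seen only after the values were known, with so few promoters that it is a description. The GENCODE 29 model of HIST1H4I begins upstream of the RefSeq start used for its promoter.

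By position, genes called lower were found in all 3 stretches of chromosome 6 that hold the HIST1 genes. In the first, chr6:26017085-26285638, 14 of 24 genes tested were called lower with a median log2 change of -0.40. In the second, chr6:27125897-27147515, the count was 2 of 5 with -0.24, and in the third, chr6:27807444-27893843, it was 7 of 14 with -0.34. Genes called lower and genes not called lay side by side in each. Of the 13 HIST2 genes tested, on chromosome 1, 5 were called lower with a median of -0.20, several of them near-identical copies. The lone HIST4 gene, HIST4H4 on chromosome 12, was at 1.26 ± 0.0605 RPKM in control and 1.54 ± 0.229 after treatment, a change of 0.17 that was not called.

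**Figure D4:**
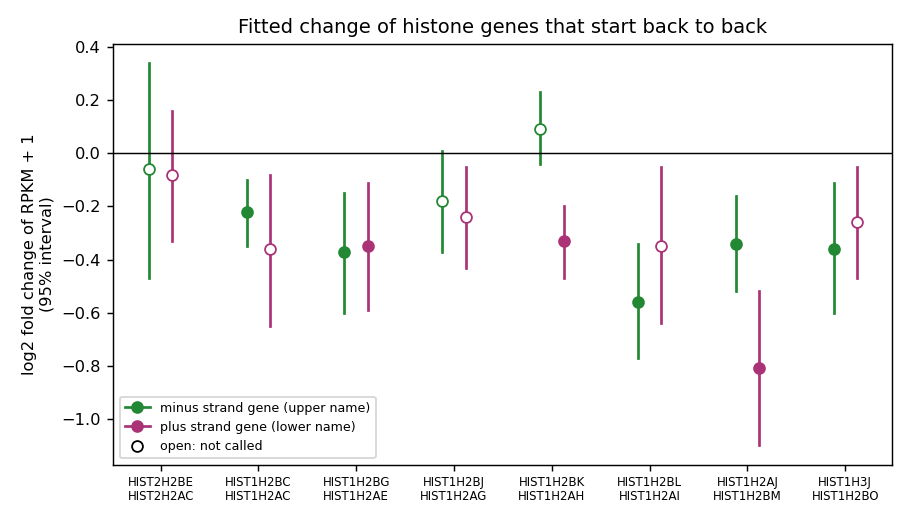
Fitted log2 fold change of RPKM + 1 with 95% confidence intervals for the 8 pairs of histone genes that start back to back on opposite strands (x axis; green, minus strand; purple, plus strand; open circles, not called). HIST1H2BK at 0.09 stands above its partner HIST1H2AH at -0.33, and HIST1H2BM at -0.81 below its partner HIST1H2AJ at -0.34.

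Many histone genes are transcribed away from each other from a shared stretch of DNA. Tested were 7 such pairs of an H2A and an H2B gene, with 218 to 330 bases between their starts, and 1 pair of an H3 and an H2B gene, HIST1H3J and HIST1H2BO, 356 bases apart. Both genes were called lower in 2 of the H2A and H2B pairs, 1 gene in 3, and neither in 2. A call in only 1 gene of a pair does not show that the partners differed. HIST1H2BC was called at -0.22, and its partner HIST1H2AC, at -0.36, was not. HIST1H2BL was called at -0.56, and its partner HIST1H2AI, at -0.35, was not. In the H3 and H2B pair HIST1H3J was called lower (-0.36) and HIST1H2BO was not (-0.26). HIST1H2AJ, whose reads are uncertain, and HIST1H2BM, 303 bases apart, changed by -0.34 and -0.81. HIST1H2AH was called lower at -0.33 while HIST1H2BK, 330 bases away, was at 0.09, and their 95% intervals (-0.47 to -0.20 and -0.04 to 0.23) did not overlap, as the plot of pairs shows. HIST2H2AC and HIST2H2BE were both near 0, at -0.08 and -0.06. The difference within a pair was not tested, and the library kit did not mark strand.

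The gene models and the depth of coverage were compared across the genes because RPKM depends on the length of the model. Ranks by RPKM depend on it too. HIST1H2BO (381 bases) averaged 4197.3 control reads, fewer than HIST1H1B (681 bases, 7300.3) and HIST2H2BF (3196 bases, 6573.7). HIST1H2AJ (387 bases) averaged 3424 against 3902.7 for HIST1H2AG (2250 bases). HIST1H4D (312 bases) averaged 3047.7 against 3205.3 for HIST1H4H (2163 bases). HIST1H1B and HIST1H3B led their types by reads as well. Among genes with a coding-length model, 14 of 24 tested were called lower (median -0.39), against 5 of 16 whose model runs over 300 bases past the stem-loop (median -0.26) and 9 of 17 others (median -0.35). Genes with 5 or more control reads per base, up to 11.0 in HIST1H2BO, gave 7 calls of 13 (median -0.33), and those below gave 21 of 44 (median -0.36). Over the 57 genes, which share libraries, Spearman's rho of the log2 change was -0.08 with mean RPKM, -0.15 with reads per base and 0.09 with exon length. The effect of the authors' removal of duplicate reads on such short, densely covered genes was not tested. In 11 of the tested genes the annotated span overlaps another listed gene and 1 had no span. Without these 12, 26 of 45 were called lower.

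Of 17 genes for histone transcription and 3′ end processing, 5 were called lower (29.4%, against 13.4% of all genes tested) and 2 higher (11.8%, near the 12.0% of all genes), with a median of -0.08. SLBP, which binds the stem-loop, had 103, 96.1 and 91.2 RPKM in control and 69.3, 72.0 and 78.1 with arsenic trioxide, a change of -0.40 ± 0.07 (SE, adjusted p = 0.00815, limma) that held with any 1 library left out. SYMPK, the scaffold of the cleavage complex, fell by 0.31 on the log2 scale (adjusted p = 0.0118, limma), also with any library left out. LSM11 and ZNF473, both of the U7 processing machinery, rose by 0.49 and 0.38 on the log2 scale (adjusted p = 0.0174 and 0.0165, limma), and each was called in 3 of the 6 fits with 1 library left out. LSM10, also of that machinery, went the other way. Its change was -0.34 (adjusted p = 0.0326, limma), called in 1 of those 6 fits. The counts shrank with 1 library left out, to 2 lower without control 1 or control 3 and to 3 without control 2, ATO 2 or ATO 3, and to 0 higher without control 3 and 1 without control 1, control 2, ATO 1 or ATO 2. NPAT, the coactivator of histone genes in S phase, was at 9.1 ± 0.691 RPKM in control and 10.0 ± 0.107 after treatment (change 0.13, adjusted p = 0.285, limma). CASP8AP2, also of the histone locus body, was at 16.1 ± 1.25 and 15.8 ± 0.802 RPKM, with overlapping groups. Of 11 genes tested for histone mRNA decay, 2 were called higher (18.2%) and 1 lower (9.09%), beside 12.0% and 13.4% of all genes. The exonuclease XRN1 rose by 0.43 and the decapping enzyme DCP2 by 0.35 (adjusted p = 0.00975 and 0.0106, limma), and both held with any library left out. ATR, the checkpoint kinase, was lower by a log2 change of -0.45 (adjusted p = 0.0158, limma), not called without control 3 (0.0502) or ATO 1 (0.0521).

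Genes that handle or replace these histones were mostly not called. Of 22 chaperone and import genes tested, 1 was called higher (4.55%) and 4 lower (18.2%), beside 12.0% and 13.4% of all genes. ASF1A, a chaperone of H3 and H4, was at 19.6 ± 1.66 RPKM in control and 28.4 ± 0.895 after treatment, a rise of 0.51 on the log2 scale (adjusted p = 0.00428, limma). DAXX, which deposits a replacement form of H3, fell by 0.53 on that scale, and TONSL, which reads newly made H4, fell by 0.75 (adjusted p = 0.00629 and 0.00598, limma). Of 8 genes tested from a list chosen as replication-independent variants, 3 were called lower (37.5%, against 13.4% of all genes) and 0 higher. None was higher at an unadjusted p under 0.05 or by limma-voom. H2AFZ, a replacement form of H2A, was at 81.6 ± 6.12 RPKM in control and 66.6 ± 1.97 after treatment, a change of -0.29 (adjusted p = 0.0219, limma). H1FX and H2AFV changed by -0.48 and -0.24 (adjusted p = 0.0262 and 0.0441, limma). None of the 3 was called without control 1, control 2, ATO 2 or ATO 3. H3F3A and H3F3B, genes of the replacement form of H3, stood at log2 changes of 0.03 and -0.04, and H2AFX, a form that marks DNA breaks, at -0.06, with overlapping groups and none called. Of 18 RNAs chosen as abundant and without a poly(A) tail, 11 were not listed and 7 were tested. Some of these were scarce here, such as RNU12 (2.79 RPKM in control) and RNU6ATAC (4.2). Of the 7, 0 were called in either direction by limma-trend. At an unadjusted p under 0.05 there was 1, SCARNA5 with a log2 change of 0.28, which limma-trend called without control 1 (adjusted p = 0.0243) and limma-voom did not (0.101). RN7SL2, the RNA of the signal recognition particle, was at 3366 ± 272 RPKM in control and 4022 ± 422 with arsenic trioxide and made up nearly all of the list's summed level. For RN7SL2 every treated library lay above every control. It was not called by limma-trend (adjusted p = 0.229) and was by limma-voom (0.023).

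Of 30 genes of S phase and replication tested, 9 were called lower (30%, against 13.4% of all genes) and 3 higher (10%, against 12.0%), with a median of -0.09. MCM7, a subunit of the replicative helicase, had 119, 123 and 117 RPKM in control and 62.4, 51.4 and 60.1 with arsenic trioxide, a change of -1.04 ± 0.08 (SE, adjusted p = 0.000558, limma). MCM3, another subunit, and the kinase gene CDK2 fell by 0.54 and 0.56 on the log2 scale (adjusted p = 0.00224 and 0.00264, limma). The other subunits of that helicase did not move together. MCM4 changed by -0.41 and MCM5 by 0.37 (adjusted p = 0.00311 and 0.0143, limma). MCM2 and MCM6, at -0.18 and -0.04, were not called. PCNA, the replication clamp, was at 184 ± 8.27 RPKM in control and 139 ± 22.9 after treatment. Its change of -0.41 (adjusted p = 0.04, limma) was called in 1 of the 6 fits with 1 library left out, that without ATO 3 (0.00983). ORC1, of the origin recognition complex, rose by 0.60 on the log2 scale (adjusted p = 0.00319, limma). CCNE2, a cyclin of S phase entry, was at 4.37 ± 0.405 RPKM in control and 5.2 ± 0.762 after treatment and was not called (adjusted p = 0.281, limma). No value here measures the share of cells in S phase, so its part in the histone result was not tested.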

How the data were processed

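Total RNA of NB4 cells, 3 control libraries and 3 after 6 h of arsenic trioxide, had its ribosomal RNA removed before library preparation with a kit that keeps no strand information, per the labels' protocols. HISAT2 2.1.0, HTSeq, DESeq2 and the build hg38 are named, with no parameters, per the submitters' processing notes, and duplicate reads were removed per the file headers. The authors deposited RPKM of 23858 genes. The same table holds the authors' comparison: a mean normalized signal, the log2 change and its error, a test score and raw and adjusted p-values, per the file headers. Quoted values from it are named as such.

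RPKM was turned back into whole reads with GENCODE 29 exon lengths (GRCh38): 93.0% of genes came out whole within 0.01 reads in all 6 libraries from that length, and 100.00% after lengths were settled on the file's values. Totals were 19361333 to 22609019 reads. No sample of the table was left unmapped. Log2(RPKM + 1) of genes that averaged 1 RPKM or more (16803 tested, 7055 set aside) was fitted with limma 3.58.1 (R 4.3.3) in trend mode, treatment as the only term, and adjusted by Benjamini-Hochberg over all genes tested. The fit was tested on simulated data. A fold change on this scale understates changes of low genes.

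The members, lists and tests were chosen with earlier results of these data known. Named by rule were the 4 most abundant genes of each type, the 5 largest called falls and rises (no rise was called), up to 3 called genes of smallest p per list, and SLBP, NPAT, CASP8AP2, H3F3A, H3F3B, H2AFZ, H2AFX, PCNA and CCNE2. Any other gene named with its value, such as HIST1H2AB, HIST1H2BF, HIST1H2BL, HIST1H3C, HIST1H4B, LSM11, ORC1, SCARNA5 and RN7SL2, was chosen after its values were seen. Shared sequence is the percentage of a gene's 50-base stretches, over its GENCODE 29 transcripts, found in another histone gene's transcripts. Stem-loops were found in those transcripts by the histone stem-loop consensus with a perfectly paired stem. Promoters are from RefSeq (GRCh38.p14), matched for 52 of the 61 genes by synonym, position and strand, and motifs may overlap. Alternatives were pseudocounts of 0.1 and 5 RPKM, no filter, limma-voom on recovered reads, median-ratio factors, a replicate block, leaving out each library, leaving out genes that overlap others, and, chosen after seeing the data, leaving out control 1 and ATO 3 together.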

Additional observations from a re-analysis of the deposited data

How the results depend on the processing

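The count of histone genes called lower, 28 by the main fit, was 27 and 28 with pseudocounts of 0.1 and 5 RPKM, 25 with no filter, 25 with median-ratio factors, 26 without genes that overlap others, and 36 with limma-voom on recovered reads, of which 27 were among the 28. With 1 library left out it ranged from 17 to 27. The count of all genes called lower moved too. It was 2252 by the main fit, 2739 with limma-voom and 1427 to 1908 with 1 library left out. No histone gene was called higher under any of these, and no median and no called gene named here reversed its sign. The median of H4 (-0.13) ranged from -0.20 to -0.09 with 1 library left out. With the replicate number as a block, 19 histone genes were called lower, all among the 28, and 1616 of all genes. Whether the numbers pair the samples is not known. Deviations of same-numbered libraries correlated at -0.0852, 0.148 and -0.0829, and ATO 3 correlated best with control 1 (0.221). Correlations this weak, from 3 libraries a group, cannot decide it. Under the block, the variant list had 0 lower in place of 3, and HIST1H2BC, HIST1H1B, HIST1H3I, HIST1H2AJ, HIST1H2AE and HIST1H3F were not called. No filter and median-ratio factors each ended the calls of HIST1H1B and HIST1H2AE, and limma-voom raised the chaperone count called higher from 1 to 3. The causes of these differences were not tested. With control 1 and ATO 3 both left out, 26 histone genes were called lower, 22 of them among the 28. Precision is limited by 3 libraries a group, and the fewest reads of any listed gene were 21 over the 6 libraries.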
